A study of Mus musculus with 12 samples.

Results

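The genes described here are 35 mouse genes of the cell cycle and of DNA replication. They comprise 8 cyclins, 4 cyclin-dependent kinases (CDKs), 3 CDK inhibitors, 3 pocket proteins, 4 E2F factors, 7 replication genes and 6 genes of mitosis and proliferation. ATAC-seq reads mark sites where a transposase could cut chromatin and attach adapters, so the number of reads in a region is a measure of how open it is. Of the 94161 deposited regions, 231 had one of the 35 genes as their overlapping or nearest protein-coding gene. Of these, 141 overlapped the gene's span and 90 lay between 129 and 392282 bp from it. A region that is nearest to a gene need not act on it, and 9 of the 231 also overlapped a second gene.

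The 12 libraries came from splenic B cells of female C57BL/6J mice, without stimulation, with 10000 cells in each library. Marginal zone B cells (MZB) were sorted as CD23- CD21hi CD1d+ and follicular B cells (FoB) as CD23+ CD21mid CD1d-, both within the B220+ CD93- GL7- cells that lacked Thy1.1, F4/80 and CD11b. LSD1 status, wild-type or knockout, splits each cell type, which makes 4 groups of 3 libraries; LSD1 is a histone lysine demethylase and Kdm1a its gene. No source used here gives the Cre line, the deleted exons, the cells in which the deletion occurred or the age of the mice. The libraries of a group are not said to come from separate animals, so the p-values measure the spread between libraries, which may be technical.

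Cells enter the cycle when D-type cyclins activate CDK4 and CDK6, which phosphorylate the pocket proteins and free the E2F factors to switch on genes for DNA synthesis. Cyclin E and cyclin A with CDK2 then drive the start and progress of replication, and cyclin B with CDK1 drives mitosis, while the CDK inhibitors restrain these kinases. Resting follicular B cells are quiescent, and marginal zone B cells are known as a pre-activated population that divides sooner after stimulation. Accessibility is not expression: promoters of cell cycle genes can be open in resting cells.

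The sequences before 4 gene starts are shown because the regions over them were among those with the smallest p-values for the difference between the cell types. Each is the 250 bases before the RefSeq start (GRCm38.p6), 5′ to 3′ on the gene's strand. The windows are chr13:29986064-29986313 (minus strand) for E2f3, chr6:134920151-134920400 (plus) for Cdkn1b, chr2:127831860-127832109 (minus) for Bub1 and chr10:127063285-127063534 (plus) for Cdk4. Capitals mark CCAAT boxes, an E2F core and cell cycle homology region (CHR) letters on either strand.
E2f3: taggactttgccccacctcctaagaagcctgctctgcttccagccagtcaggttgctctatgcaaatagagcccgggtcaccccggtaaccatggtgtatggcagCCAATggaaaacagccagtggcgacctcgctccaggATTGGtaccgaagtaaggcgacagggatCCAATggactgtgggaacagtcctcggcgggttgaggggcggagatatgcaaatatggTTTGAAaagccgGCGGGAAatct
Cdkn1b: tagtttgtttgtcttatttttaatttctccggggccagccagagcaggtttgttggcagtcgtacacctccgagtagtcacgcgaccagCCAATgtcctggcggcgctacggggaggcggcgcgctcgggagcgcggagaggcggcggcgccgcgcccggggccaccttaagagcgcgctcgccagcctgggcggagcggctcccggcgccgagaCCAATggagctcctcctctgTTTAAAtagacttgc
Bub1: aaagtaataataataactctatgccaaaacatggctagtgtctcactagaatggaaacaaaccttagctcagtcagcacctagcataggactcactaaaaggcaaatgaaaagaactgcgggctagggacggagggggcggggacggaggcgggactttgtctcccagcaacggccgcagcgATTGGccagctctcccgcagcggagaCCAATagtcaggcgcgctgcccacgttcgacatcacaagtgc
Cdk4: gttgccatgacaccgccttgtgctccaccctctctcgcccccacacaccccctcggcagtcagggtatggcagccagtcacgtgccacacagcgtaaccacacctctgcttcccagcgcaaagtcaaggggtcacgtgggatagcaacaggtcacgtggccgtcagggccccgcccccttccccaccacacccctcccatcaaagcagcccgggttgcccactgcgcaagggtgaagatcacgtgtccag
The E2f3 sequence held a single E2F core, GCGGGAA, 11 to 5 bases before the start, with 3 CCAAT boxes and the CHR letters TTTGAA upstream of it. The Cdkn1b sequence held 2 CCAAT boxes and TTTAAA, the Bub1 sequence held 2 CCAAT boxes, and none of the motifs searched was in the Cdk4 window. By smallest p, windows of E2f1 and Cdk6 also qualified, but their listed starts lay 466 and 2889 bp inside the gene, so their letters are not shown.

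The same letters were counted before the starts of all genes that had an entry in the RefSeq promoter table. An E2F core on either strand, with the letters TTCCCGC in its canonical form, or TTGGCGC as the next form searched, or TTCGCGC as another, or else TTGCCGC, was present for 12 of the 28 members with an entry, or 42.9%, against 11.4% of 17492 genes. A CCAAT box was present for 20 of the 28, or 71.4%, against 39.5% of all genes. CHR letters, which are TTTGAA in the usual form and TTTAAA in the other form searched, were present for 14 of the 28, or 50.0%, against 26.3%. Mcm6, a subunit of the replicative helicase, had 4 E2F cores, and Mcm5, another subunit, had 3. A match of letters is a description of the sequence and shows no bound factor.

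Values are given in rppm, the reads in a region scaled to a library total of 1000000 over all deposited regions. A region was tested if it reached 1 rppm in at least 3 libraries, which 222 of the 231 member regions and 89782 regions in all did. The test was limma on log2(rppm + 0.5), so that fold changes of low regions are understated, and a region was called at an adjusted p (Benjamini-Hochberg, over all tested regions) under 0.05. Depth ranged from 3169966 to 10375328 reads per library, and a member region held a median of 33 reads in a library. As a check of the sort, summed accessibility at Fcer2a, which encodes CD23, was 44.8 to 53.2 rppm in wild-type MZB and 92.3 to 102.2 in wild-type FoB. Cd1d1 was higher in wild-type MZB (156.1 to 160.6 rppm) than in wild-type FoB (128.5 to 134.2), whereas Cr2, which encodes CD21, was lower (285.0 to 302.8 against 321.9 to 365.8) although its protein is high on MZB by the sort. The single region assigned to Kdm1a (chr4:136601890-136603082) read 24.0, 28.5 and 16.5 rppm in wild-type and 18.9, 29.7 and 26.6 in knockout MZB, and 24.9, 21.2 and 22.2 in wild-type against 20.5, 20.6 and 20.6 in knockout FoB. The groups overlapped in MZB and the region was not called in either cell type (adjusted p = 0.773 and 0.866, limma), and since the deleted part is not known this region checks no label.

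The first comparison asked how wild-type MZB and wild-type FoB differ at these genes. At gene starts most of the called regions were less open in MZB, from the D-type cyclin Ccnd3 through the CDK inhibitors to the replication genes, while away from the starts more of the called regions were more open in MZB. Over all 222 tested member regions, 49 were higher in MZB and 39 lower by limma, or 22.1% and 17.6%. Among all tested regions 35.7% were called, 24.2% higher and 11.4% lower. In such bulk libraries fewer cells with an open site and a site less open in each cell cannot be told apart. A gene-start region was one that overlapped the 300 bases around a RefSeq start (33 windows for 28 members), or, for the 7 members with no entry, lay within 1000 bp of a gene end. Those 7 were Ccnd1, Ccnd2, Ccne2, Ccna2, Rb1, E2f4 and Mcm4. Either end was taken for them, without regard to strand, so a region called their start may lie at the other end of the gene. There were 41 gene-start regions of members, 40 of them tested, covering every member except E2f8.

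Of the 40 gene-start regions, 22 were lower in MZB and 2 higher, with a median log2 difference of -0.29. Among all 11965 tested gene-start regions 46.3% were called, 36.5% lower and 9.83% higher, with a median of -0.21, so the members' direction was that of gene starts in general. The 22 lower regions belonged to 21 genes and differed by -0.24 to -0.79 on the log2 scale, which is 15.4% to 42.1% lower. In all 22 the 3 MZB libraries lay below the 3 FoB libraries, but these regions had been picked by the test, so the separation adds no support. The count of 22 lower regions depended on the scaling. The median of all regions stood 0.18 log2 higher in MZB in the deposited scaling and -0.08 after quantile normalization, under which 8 of the 40 were lower and 3 higher (22.6% and 8.68% of all gene starts). With edgeR and its TMM scaling on the recovered reads, 29 were lower and 2 higher, and the shares of all gene starts with edgeR are not given here. The 8 regions called lower under the deposited scaling, quantile normalization, edgeR and DESeq2 were at Ccnd3, Cdkn1a, Cdkn1b, Rbl1, Mcm7, Bub1 and, with 2 regions, E2f3, and the 2 called higher under each were at Ccnd1 and E2f1.

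**Figure D1:**
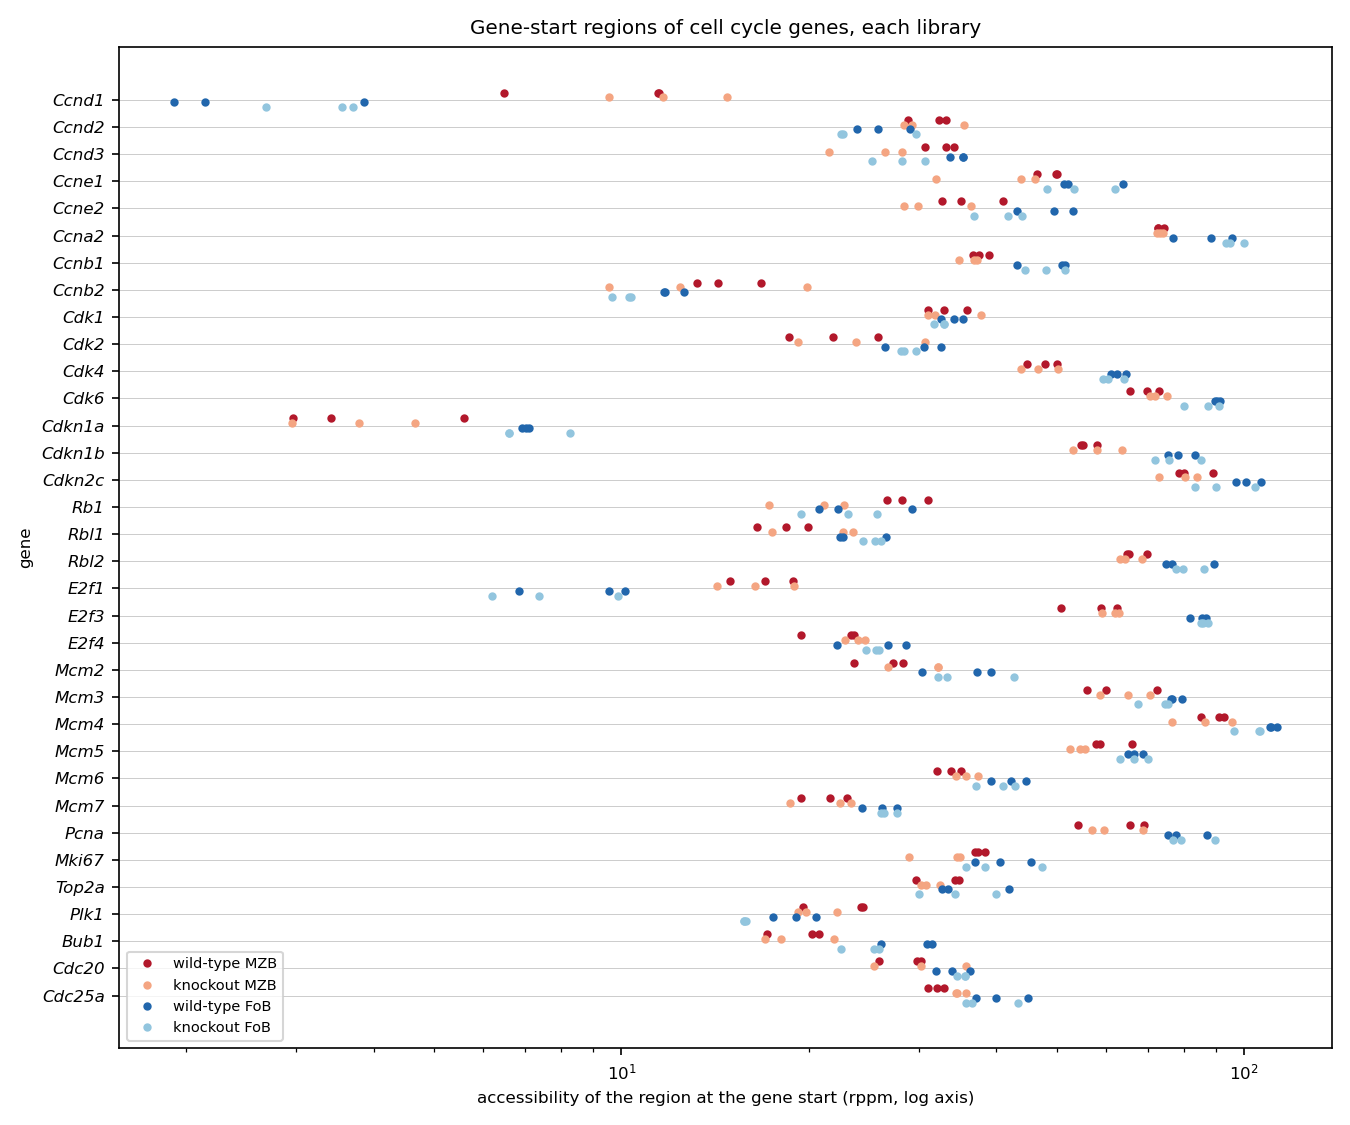
Accessibility at the gene start of each member in every library, in rppm on a log axis, with the most open gene-start region shown where a gene has several; each point is a library and colours give the 4 groups. For most genes the FoB libraries sit to the right of the MZB libraries, whereas Ccnd1 and E2f1 show the opposite order, and wild-type and knockout points of a cell type lie close together.

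Away from gene starts, 47 of 182 tested member regions were higher in wild-type MZB and 17 lower, or 25.8% and 9.34%. The shares among all 77730 such regions were 26.5% and 7.59% (34.1% called), and the medians were 0.21 for the members and 0.26 for all. After quantile normalization the member median was -0.08, with 30 higher and 26 lower. All such regions then had a median of -0.07, with 16.0% higher and 14.3% lower. With edgeR the member median was 0.01, with 41 higher and 32 lower, and over all tested regions, starts included, 18145 were higher and 17052 lower. The balance of directions thus changed with the scaling for the members and for regions in general. The 12 genes with the smallest p in each comparison of the cell types had their leading region called in the same direction under every alternative run, scaling and left-out libraries included. They were picked by their p in these same libraries, so this is no separate support. The called starts of Cdk2, Cdk4, Cdk6, Cdkn2c, Rbl2, Pcna, Cdc25a and the cyclin genes other than Ccnd1 and Ccnd3, described below, were not called after quantile normalization.

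**Figure D2:**
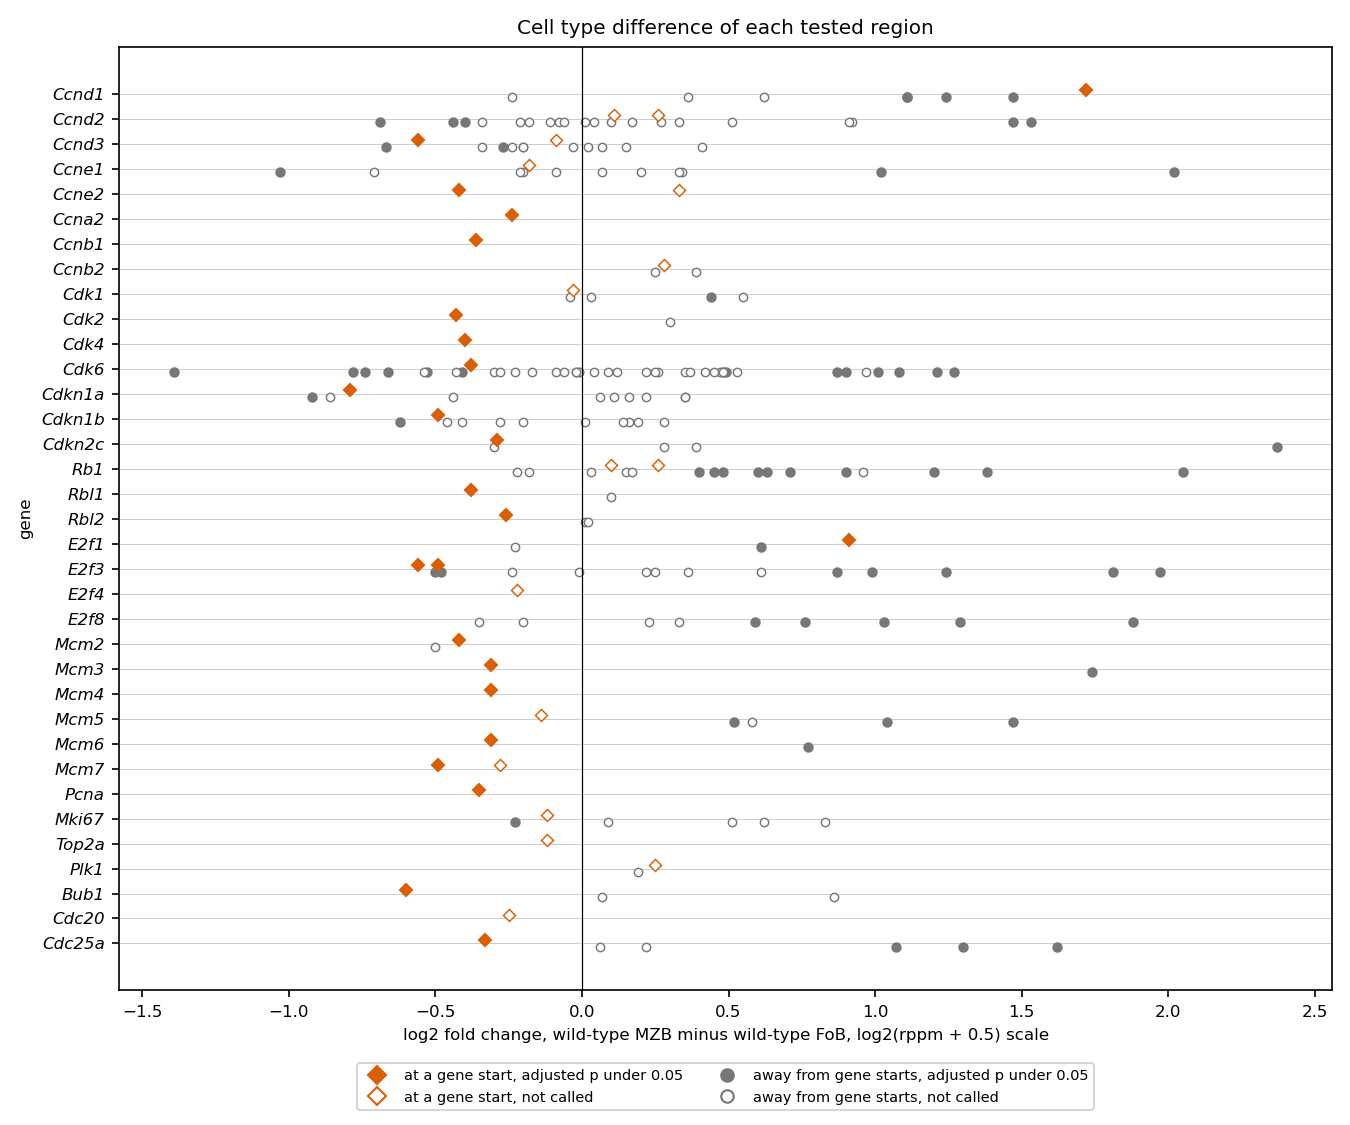
Difference between wild-type MZB and wild-type FoB for each tested region, by gene, as log2 fold change on the log2(rppm + 0.5) scale; diamonds are regions at gene starts, circles are other regions, and filled symbols have an adjusted p under 0.05. Filled diamonds fall mostly left of 0 and filled circles mostly right of it, with the largest difference, 2.37, at Cdkn2c.

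Among the cyclins, which activate the CDKs, the D-type genes differed in direction. At the start of Ccnd1, whose product opens the G1 phase, the region chr7:144939588-144939897 read 6.48, 11.4 and 11.5 rppm in wild-type MZB and 1.92, 3.86 and 2.15 in wild-type FoB. All MZB libraries lay above all FoB libraries. The region was 3.30-fold higher in MZB (log2 1.72, SE 0.25, adjusted p = 1.37e-06, limma), and knockout libraries read 9.56, 11.7 and 14.8 rppm in MZB and 2.69, 3.71 and 3.56 in FoB. Summed over its 8 regions, Ccnd1 was open at 61.0 to 66.5 rppm in wild-type MZB and 30.6 to 36.5 in wild-type FoB, a log2 difference of 0.90 (SE 0.09, adjusted p = 1.08e-08). It was the largest rise in MZB of the 35 summed levels.

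Ccnd2, a D-type cyclin gene induced when B cells are activated, had 23 regions, of which 2 were higher and 3 lower in MZB (24.2% and 11.4% of all tested regions were). The region with the smallest p (chr6:127288892-127289407, 136704 bp from the gene) read 20.5, 21.8 and 18.4 rppm in wild-type MZB against 8.76, 6.75 and 5.73 in wild-type FoB. The groups did not overlap, and MZB stood 2.76-fold higher (log2 1.47, SE 0.17, adjusted p = 1.3e-08). Neither of the tested Ccnd2 gene-start regions was called (adjusted p = 0.604 and 0.109), and the summed level did not pass the test (0.04, adjusted p = 0.58).

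At Ccnd3, the D-type cyclin known for its part in germinal centre B cells, the gene-start region chr17:47504819-47505293 read 17.5, 16.5 and 15.9 rppm in wild-type MZB and 24.4, 25.6 and 24.4 in wild-type FoB. It was lower in every MZB library (log2 -0.56, SE 0.14, adjusted p = 0.00125). A second annotated start, at chr17:47593085-47593770, overlapped between the types (30.8 to 34.2 against 33.7 to 35.4 rppm) and was not called (adjusted p = 0.61).

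Ccne1, which encodes cyclin E1 and with CDK2 starts replication, carried regions of both directions. A region 3211 bp from the gene (chr7:38094234-38094773) read 20.0, 16.5 and 15.9 rppm in wild-type MZB and 33.7, 36.4 and 37.5 in wild-type FoB. MZB was lower without overlap (log2 -1.03, SE 0.13, adjusted p = 1.23e-07). In contrast, a region on the other side at 29146 bp (chr7:38136636-38137072) read 7.46, 10.7 and 7.98 rppm in knockout MZB and 0.828, 1.44 and 1.02 in knockout FoB, 5.79-fold higher in MZB (log2 2.53, SE 0.28, adjusted p = 7.37e-09). The starts of Ccne2 (-0.42, adjusted p = 0.00427), of the S-phase cyclin gene Ccna2 (-0.24, 0.0223) and of the mitotic cyclin gene Ccnb1 (-0.36, 0.00567) fell in wild-type MZB relative to FoB. Ccnb2, the other cyclin B gene measured, had no called region in wild-type cells.

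The cyclin-dependent kinases had lower starts in MZB for 3 of 4 genes, beside the 36.5% lower among all gene starts. The start of Cdk4 read 44.8, 47.9 and 50.1 rppm in wild-type MZB and 61.1, 64.5 and 62.6 in wild-type FoB (log2 -0.40, SE 0.09, adjusted p = 0.000868). For Cdk6, its partner kinase in G1, the listed start lies 2889 bp inside the gene. The region there read 65.6, 69.9 and 73.1 against 90.4, 89.8 and 91.4 (log2 -0.38, SE 0.08, adjusted p = 0.000365). Neither pair of groups overlapped. Cdk2 fell by 0.43 (adjusted p = 0.014), whereas the start of Cdk1, the mitotic kinase, read 31.1 to 35.9 rppm in MZB and 32.6 to 35.3 in FoB and was not called (adjusted p = 0.856).

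Cdk6 held 41 regions, the most of any member, and 8 were higher and 7 lower in wild-type MZB. Among all tested regions 24.2% were higher and 11.4% lower. The summed level of Cdk6 overlapped between the types and did not pass the test (495.5 to 541.1 against 478.3 to 570.2 rppm, adjusted p = 0.817). Within the gene, chr5:3419296-3419629 read 3.51, 3.19 and 3.11 rppm in wild-type MZB and 9.86, 9.54 and 8.83 in wild-type FoB, and was lower in MZB (log2 -1.39, SE 0.22, adjusted p = 5.05e-06). A second region within it, chr5:3460328-3461292, went the other way in knockout cells, at 39.2, 44.5 and 33.1 rppm in MZB and 17.0, 20.2 and 13.5 in FoB (log2 1.19, SE 0.14, adjusted p = 1.9e-08). The groups were separate at both.

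The 3 CDK inhibitor genes all had lower starts in wild-type MZB, where 36.5% of all gene starts were lower. At Cdkn1b, which encodes p27 and holds resting lymphocytes out of the cycle, the start region chr6:134920057-134920903 read 55.1, 58.0 and 54.7 rppm in wild-type MZB and 83.2, 75.6 and 78.3 in wild-type FoB. Every MZB library lay below every FoB library (log2 -0.49, SE 0.09, adjusted p = 4.35e-05). A region 2797 bp from the gene (chr6:134928322-134929094) differed by -0.62 (SE 0.10, adjusted p = 5.59e-06), with 41.8, 43.6 and 35.1 rppm in wild-type MZB and 59.4, 66.9 and 58.7 in wild-type FoB. The summed level over 11 regions was 175.1 to 190.6 rppm in wild-type MZB and 229.7 to 235.3 in wild-type FoB, lower in MZB (log2 -0.35, adjusted p = 8.61e-06).

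Cdkn1a encodes p21, the inhibitor induced by p53, and no deposited region overlapped its outermost RefSeq start. The region at its second listed start, 2790 bp into the gene, read 2.97, 5.58 and 3.42 rppm in wild-type MZB and 7.12, 7.04 and 6.92 in wild-type FoB (log2 -0.79, SE 0.24, adjusted p = 0.00997). Its most open region, chr17:29095010-29095882 within the gene, read 14.3, 12.2 and 9.33 against 24.1, 21.5 and 22.7 (log2 -0.92, SE 0.15, adjusted p = 5.11e-06). Both regions were lower in MZB without overlap.

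At Cdkn2c, which encodes p18, an inhibitor of CDK4 and CDK6, the start fell by 0.29 (adjusted p = 0.00741), while a short region 545 bp from the gene (chr4:109660201-109660331) went the other way. That region read 5.40, 5.58 and 3.11 rppm in wild-type MZB and 1.095, 0.675 and 0 in wild-type FoB. It was 5.17-fold higher in MZB on the pseudocount scale (log2 2.37, SE 0.40, adjusted p = 1.17e-05), and rested on 51 reads against 11.

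Of the pocket proteins, which bind and silence E2F factors, Rb1 held 16 of the 19 tested regions away from starts. Of these 16, 10 were higher in wild-type MZB and none lower. Among all regions away from starts 26.5% were higher and 7.59% lower. The 2 tested Rb1 regions at a gene end, counted as starts, were not called (adjusted p = 0.654 and 0.153). The region with the smallest p in wild-type cells (chr14:73219994-73220126) read 2.97, 2.92 and 2.18 rppm in MZB and 0.274, 0.289 and 0.239 in FoB, on only 29 and 5 reads (log2 2.05, SE 0.41, adjusted p = 0.000154). A more open one (chr14:73222485-73222895) read 11.2, 15.5 and 12.1 rppm in knockout MZB and 4.76, 7.21 and 5.34 in knockout FoB (log2 1.1, SE 0.19, adjusted p = 1.56e-05). The groups did not overlap at either region, and the summed level of Rb1 was 205.4 to 219.6 rppm in wild-type MZB against 157.3 to 171.9 in wild-type FoB (log2 0.39, adjusted p = 1.64e-05). At the related genes Rbl1 and Rbl2 the starts were lower in MZB (-0.38 and -0.26, adjusted p = 0.025 and 0.0168).

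The E2F factors had 11 higher and 2 lower regions among 24 away from starts, where 26.5% of all regions were higher and 7.59% lower. E2f3, an activating E2F, showed opposite directions at its start and within the gene. Its main start region (chr13:29985981-29986626), which lies over the printed sequence, read 50.7, 62.5 and 58.8 rppm in wild-type MZB and 81.9, 85.5 and 86.7 in wild-type FoB (log2 -0.56, SE 0.09, adjusted p = 2.94e-06). Inside the gene, chr13:29960616-29961060 read 11.9, 14.1 and 12.4 against 2.74, 2.60 and 3.34 (log2 1.97, SE 0.22, adjusted p = 4.56e-09), the smallest p of any member region between the wild-type cell types. Each was separate between the types, and the summed level of the gene did not pass the test (adjusted p = 0.143).

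At E2f1, another activating E2F, the called region near its start (chr2:154568972-154569628) read 17.0, 18.9 and 14.9 rppm in wild-type MZB and 10.1, 6.84 and 9.55 in wild-type FoB. It was higher in MZB without overlap (log2 0.91, SE 0.18, adjusted p = 0.000129). It covers a listed start 466 bp inside the gene. The neighbouring region over the outer end of the gene (chr2:154569689-154570332) read 28.1, 26.6 and 28.9 rppm in MZB and 38.9, 33.1 and 27.2 in FoB, overlapped between the groups and was not called (adjusted p = 0.139). The start region of E2f4, a factor that acts mainly as a repressor, was likewise not called (-0.22, adjusted p = 0.186).

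E2f8, an E2F that represses E2F targets, had no region at its start and 9 elsewhere, of which 5 were higher in wild-type MZB (26.5% of all regions away from starts were). The region 4878 bp from the gene (chr7:48861157-48861551) read 5.94, 4.79 and 4.98 rppm in wild-type MZB and 0.821, 1.16 and 1.19 in wild-type FoB. MZB was 3.69-fold higher without overlap (log2 1.88, SE 0.31, adjusted p = 6.55e-06).

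The replication genes, 6 subunit genes of the MCM helicase that unwinds DNA at origins and Pcna, the sliding clamp of the polymerases, had 8 start regions, of which 6 were lower in wild-type MZB and none higher. Among all gene starts 36.5% were lower and 9.83% higher. The start of Mcm4 read 92.8, 85.3 and 91.1 rppm in MZB and 110.3, 112.8 and 110.1 in FoB (log2 -0.31, SE 0.08, adjusted p = 0.00322). Pcna read 54.0, 69.1 and 65.6 rppm in MZB and 77.8, 87.2 and 75.5 in FoB (log2 -0.35, SE 0.10, adjusted p = 0.0043). Neither overlapped, and Mcm2, Mcm3, Mcm6 and 1 of the 2 Mcm7 starts were lower too (log2 -0.31 to -0.49), while Mcm5 was not called (-0.14, adjusted p = 0.243). Of these 6 starts, only that of Mcm7 was also called lower after quantile normalization.

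Away from their starts the replication genes had 7 tested regions, of which 5 were higher in wild-type MZB and none lower. The shares among all such regions were 26.5% higher and 7.59% lower. The 5 were 3 regions of Mcm5 (0.52 to 1.47), 1 of Mcm3 (1.74) and 1 of Mcm6. The Mcm6 region, within the gene at chr1:128357428-128357863, read 16.6, 16.1 and 18.6 rppm in knockout MZB and 10.8, 6.59 and 8.39 in knockout FoB. It was higher in MZB without overlap (log2 0.98, SE 0.17, adjusted p = 2.17e-05).

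Among the genes of mitosis and proliferation, 2 of 6 starts were lower in wild-type MZB, beside the 36.5% lower among all gene starts. At Bub1, a kinase of the spindle checkpoint, the start read 20.8, 20.2 and 17.1 rppm in wild-type MZB and 30.9, 26.1 and 31.5 in wild-type FoB, without overlap (log2 -0.60, SE 0.13, adjusted p = 0.000485). The start of Cdc25a, a phosphatase that activates CDKs, fell by 0.33 (adjusted p = 0.0147), but the region chr9:109877011-109877322 inside that gene was higher in MZB. It read 7.02, 6.11 and 9.02 rppm in wild-type MZB and 1.37, 2.31 and 2.63 in wild-type FoB (log2 1.62, SE 0.27, adjusted p = 9.52e-06). The starts of Mki67, the gene of the proliferation marker Ki-67, and of Top2a, Plk1 and Cdc20, which act in chromosome structure, mitotic entry and anaphase, were not called (adjusted p = 0.105 to 0.464).

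**Figure D3:**
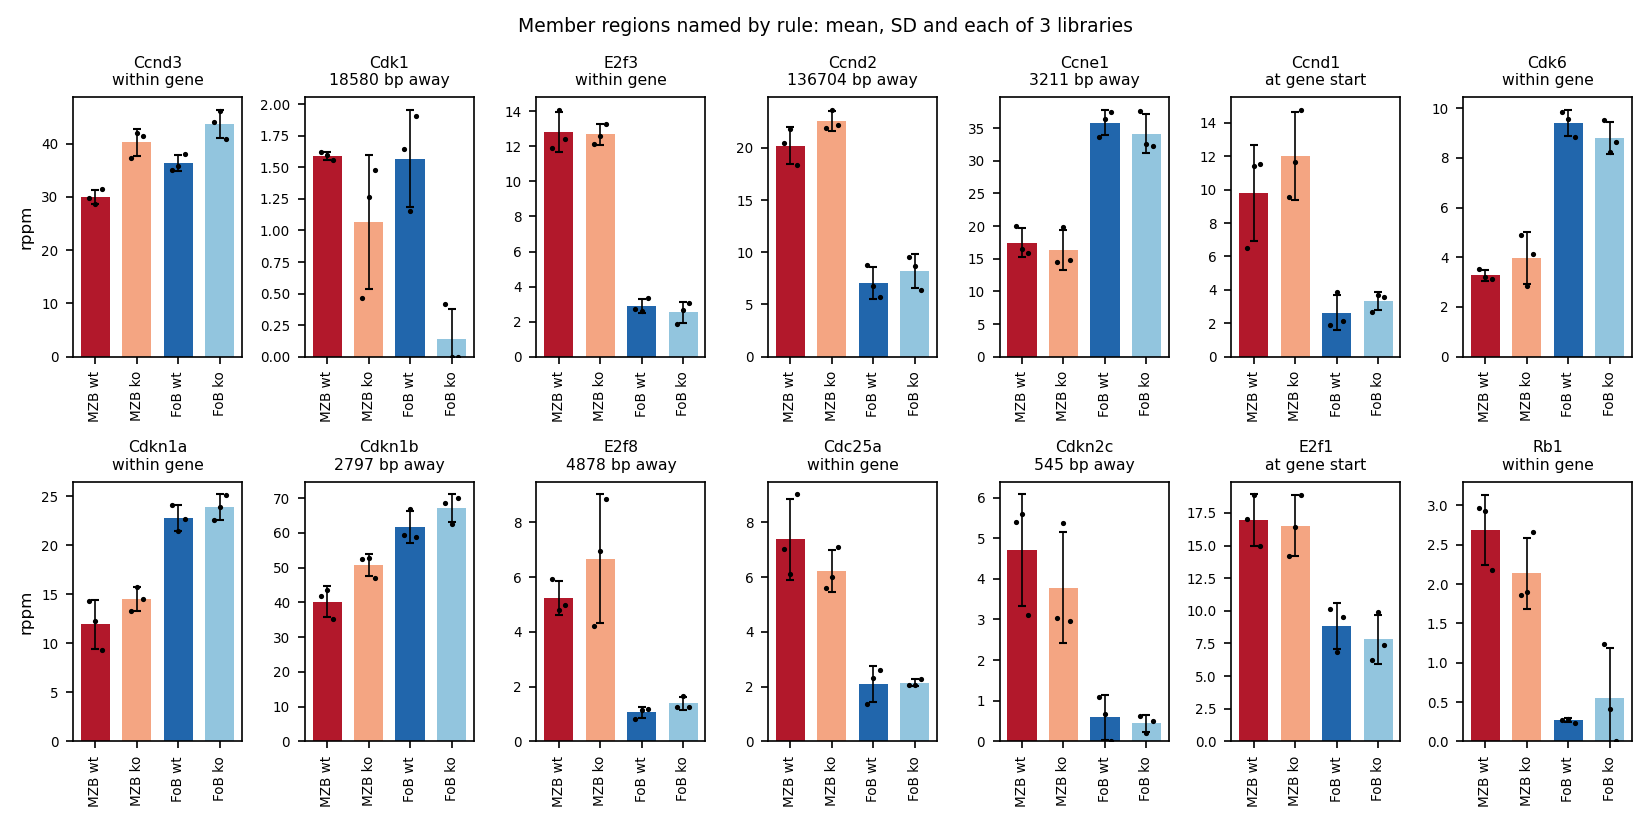
Accessibility of the member regions named for the knockout comparisons and for wild-type MZB against wild-type FoB, in rppm; bars are means of 3 libraries, error bars ± SD, not drawn below 0, and dots the libraries. The bars of wild-type and knockout cells of a type are close in height at most genes, Ccnd3 and the sparse Cdk1 region being those called between genotypes.

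On the summed level per gene, 4 members were higher in wild-type MZB (Ccnd1, Rb1, E2f1 and E2f8) and 17 lower, against 48.7% of 16783 genes called, 23.1% higher and 25.6% lower. The median of the 35 was -0.19 and that of all genes -0.02. The 17 were Ccnd3, Ccne2, Ccna2, Ccnb1, Cdk2, Cdk4, Cdkn1a, Cdkn1b, Cdkn2c, Rbl2, Mcm2, Mcm3, Mcm4, Mcm7, Pcna, Mki67 and Bub1. After quantile normalization 14 were lower and 4 higher, with a median of -0.15, and the shares of all genes under that scaling are not given here. The higher call of E2f8 rested on regions outside the gene, since over the regions that overlap it the difference was -0.22 (adjusted p = 0.0558). Leaving out 1 library ended the call of 9 of the 21 genes (Bub1, Ccna2, Ccne2, Cdk2, Cdkn2c, E2f1, Mcm3, Mki67 and Rbl2) in at least 1 instance, with adjusted p from 0.056 to 0.227, and each of the 6 wild-type libraries ended at least 1 of them.

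The same comparison in knockout cells used 6 other libraries. At gene starts 19 of 40 regions were lower in knockout MZB than in knockout FoB and 4 higher, against 31.0% and 9.54% of all gene starts (40.6% called). After quantile normalization 6 of the 40 were lower and 4 higher, against 16.3% and 7.55% of all gene starts. Away from starts 44 of 182 were higher and 13 lower, against 25.3% and 6.15% of all such regions (31.5% called). Of the 88 regions called in wild-type cells, 63 were called in the same direction in knockout cells, which is 71.6% of the wild-type calls and 78.8% of the 80 knockout calls, and none was called in opposite directions. The same overlap over all regions is not given here, so these shares cannot be read as particular to the members. Of the 80, 48 were higher and 32 lower, and over all regions 32.7% were called, 23.2% higher and 9.47% lower.

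The regions that led in knockout cells were mostly those described above. Of the regions not yet described, one 3521 bp from Ccnd1 (chr7:144943352-144943726) read 10.96, 9.46 and 12.4 rppm in knockout MZB and 2.90, 3.71 and 3.56 in knockout FoB, without overlap (log2 1.56, SE 0.22, adjusted p = 6.39e-07). A sparse region 14294 bp from Cdc25a (chr9:109908189-109908455) held 30 reads in knockout MZB and 2 in knockout FoB. The ratio of depth-scaled reads was 18.8 with an exact 95% interval of 4.78 to 163.0 that covers counting error only, and the adjusted p was 2.73e-05. On summed levels 6 members were higher in knockout MZB (Ccnd1, Ccnb2, Rb1, E2f8, Plk1 and Cdc25a) and 11 lower (Ccne1, Ccne2, Ccna2, Ccnb1, Cdk4, Cdkn1a, Cdkn1b, Rbl2, Mcm4, Mcm7 and Pcna), where 42.5% of all genes were called. Leaving out 1 library ended the call of 7 of these 17 (Ccnb2, Ccne1, Ccne2, Cdc25a, Mcm4, Plk1 and Rbl2) in at least 1 instance, with adjusted p from 0.0518 to 0.171, and each of the 6 knockout libraries ended at least 1.

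The next comparisons asked whether loss of LSD1 changed these genes. In MZB 1 of 222 member regions was higher in knockout and none lower, against 0.777% of all regions called (0.502% higher, 0.275% lower). At an unadjusted p under 0.05 there were 13 higher and 8 lower. The shares of all regions, gene starts or genes at an unadjusted p under 0.05 are not given here. Counts at that threshold, here and below, thus have no reference. With edgeR 2 member regions were called, both higher, beside 430 higher and 299 lower among all tested regions. DESeq2, which gave an adjusted p for 168 of the 222, called 0. None of the 40 gene-start regions was called in MZB (0.627% of all gene starts were). At an unadjusted p under 0.05, 1 start was higher and 3 lower, and edgeR and DESeq2 called 0.

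The called region lay within Ccnd3 (chr17:47507736-47508568) and read 29.7, 28.7 and 31.4 rppm in wild-type MZB and 37.3, 42.0 and 41.4 in knockout MZB. All knockout libraries were above all wild-type libraries. The region was 1.34-fold higher (log2 0.42, SE 0.10, adjusted p = 0.0412), and in FoB it read 35.04, 35.9 and 38.0 in wild-type and 44.1, 46.1 and 40.9 in knockout, a log2 difference of 0.26 that did not pass the test (adjusted p = 0.378). The call in MZB was near the threshold. It was lost with DESeq2 (adjusted p = 0.211), in a fit of the MZB libraries alone (0.0538), with a pseudocount of 0.1 (0.0531) and on leaving out any one of the 3 wild-type libraries or knockout library 2 or 3 (adjusted p up to 0.149), with the log2 difference between 0.39 and 0.47 throughout.

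On the summed level, E2f8 rose in knockout MZB, where 2.97% of all genes were called (1.67% higher, 1.29% lower). Its 9 regions summed to 105.0, 102.6 and 99.8 rppm in wild-type MZB and 123.8, 121.5 and 118.2 in knockout MZB, without overlap (log2 0.24, SE 0.06, adjusted p = 0.0329). No single E2f8 region was called, and leaving out any one of the 6 libraries ended the call (adjusted p = 0.0671 to 0.138). Counting only regions that overlap the gene, the difference was -0.02 (adjusted p = 0.959), and the region beside the gene with the smallest p went from a mean of 30.8 to 42.6 rppm (log2 0.46, adjusted p = 0.0648). In FoB the sum read 82.1, 85.2 and 83.8 rppm in wild-type and 82.4, 88.0 and 84.1 in knockout (adjusted p = 0.959). No other summed level passed in MZB, including that of Rbl1, whose difference of 0.25 (SE 0.12, adjusted p = 0.261) was slightly larger, Mcm2 at 0.19 (SE 0.12, adjusted p = 0.452) and Ccnd2 at 0.16 (SE 0.05, adjusted p = 0.0861).

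In FoB 1 of 222 member regions was lower in knockout and none higher, against 0.539% of all regions called (0.32% higher, 0.219% lower). At an unadjusted p under 0.05 there were 7 higher and 8 lower. With edgeR 1 member region was called, which was higher, beside 328 higher and 227 lower among all tested regions. DESeq2, which gave an adjusted p for 179 of the 222, called 0. The region called by limma lay 18580 bp from Cdk1 (chr10:69371492-69371620) and was sparse, with 1.64, 1.16 and 1.91 rppm in wild-type FoB libraries against 0.414, 0 and 0 with the knockout. These are 26 reads against 2, a ratio of 9.72 with an exact 95% interval of 2.43 to 84.5 for counting error only (log2 -1.74, SE 0.41, adjusted p = 0.0326). The call was lost with edgeR (adjusted p = 0.052), in a fit of the FoB libraries alone (0.0681), after quantile normalization (0.0645), with a pseudocount of 2 (0.0847) and on leaving out any one of the 3 wild-type libraries or knockout library 2 or 3 (adjusted p up to 0.207). In MZB the region held 17 reads in wild-type and 11 in knockout (adjusted p = 0.659).

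No gene-start region of a member was called in FoB by limma, edgeR or DESeq2 (0.46% of all gene starts were called by limma), and 2 were lower at an unadjusted p under 0.05. No summed level was called in FoB by limma or edgeR, where 1.4% of all genes were (0.846% higher, 0.554% lower), and 2 were lower at an unadjusted p under 0.05. The summed log2 differences ranged from -0.35 (Ccnb2) to 0.15 (Ccna2) in FoB and from -0.22 (Ccne2) to 0.25 (Rbl1) in MZB. The test of the difference between the knockout effects in the 2 cell types called no member region with limma, edgeR or DESeq2 (0.00111% of all regions were called by limma), with 8 higher and 7 lower at an unadjusted p under 0.05. It called no summed level with limma or edgeR, where 0.0119% of all genes were called, with 1 at an unadjusted p under 0.05. Knockout effects on Ccnd3, Cdk1 and E2f8 were thus not shown to differ between MZB and FoB.

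**Figure D4:**
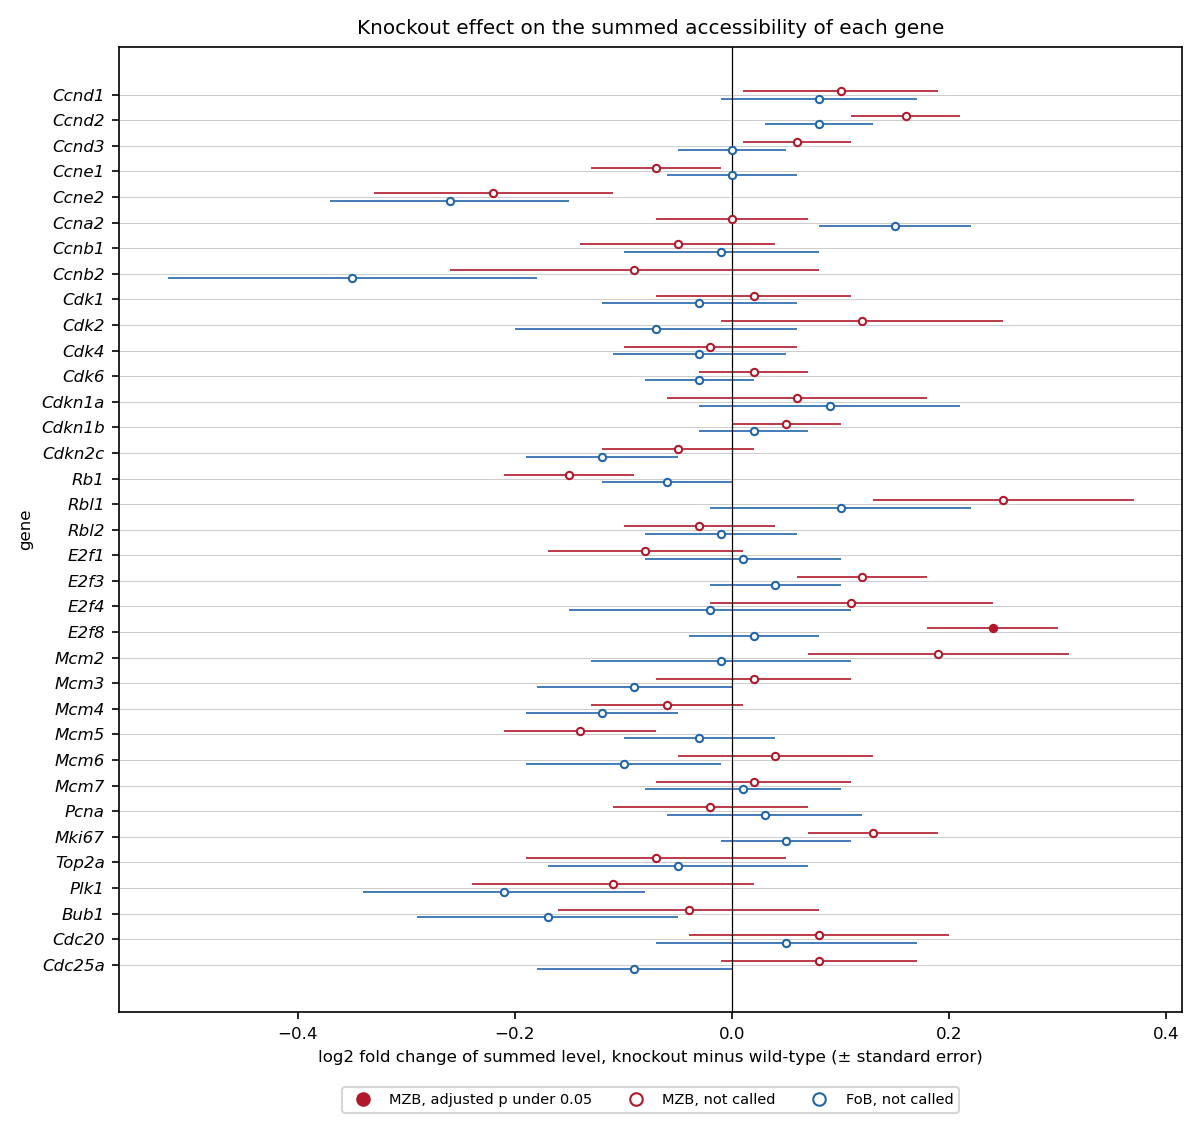
Log2 fold change of each gene's summed accessibility, knockout minus wild-type, with the standard error of the fit as bars, for MZB in red and FoB in blue; the filled point has an adjusted p under 0.05. The points lie between -0.35 and 0.25 and E2f8 in MZB, at 0.24, is the filled one.

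Other genes of the pathway were taken from lists of 31 further cell cycle regulators, 42 replication genes and 31 mitosis genes. In wild-type MZB against FoB, 33 regions of the regulators were higher and 24 lower of 159, 37 and 31 of 182 for replication, and 28 and 42 of 154 for mitosis, beside 24.2% higher and 11.4% lower among all regions. At their gene starts 4 were higher and 15 lower of 34 for the regulators, 0 and 23 of 42 for replication, and 0 and 20 of 31 for mitosis. Among all gene starts 9.83% were higher and 36.5% lower. The smallest p in each list belonged to a region 39915 bp from Cdkn2b, a CDK4 and CDK6 inhibitor gene (19.2 against 4.84 rppm, log2 1.89, adjusted p = 1.36e-10), a region within Pole, the leading-strand polymerase (18.4 against 4.45, log2 1.92, adjusted p = 8.52e-11), and a region 20176 bp from Cenpe, a kinetochore motor (59.2 against 147.2, log2 -1.32, adjusted p = 5.68e-14).

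With the knockout, 2 of the 495 tested regions of these lists rose in MZB and 2 fell in FoB. That is 0.404% in each, beside 0.777% and 0.539% of all regions called, and rests on too few calls to rank the shares. The start of E2f2, an activating E2F that was not among the 35 genes, read 17.0, 18.6 and 20.8 rppm in wild-type and 32.4, 35.3 and 35.8 in knockout MZB. It rose without overlap (log2 0.86, SE 0.12, adjusted p = 7.72e-05), and in FoB it read 30.1, 32.4 and 23.2 against 43.3, 39.3 and 37.9, a log2 difference of 0.50 that missed the threshold (adjusted p = 0.0515). This E2f2 region (chr4:136180407-136180885) lies on the same chromosome as, and near, the region of the targeted gene Kdm1a (chr4:136601890-136603082). Whether that nearness has a part in the rise was not tested. The other called regions were within the primase gene Prim2 in MZB (1.78 to 5.68 rppm, adjusted p = 0.0189), and, in FoB, 200107 bp from Ccnh, the cyclin of the CDK-activating kinase (6.24 to 3.22 rppm, adjusted p = 0.032), and 34551 bp from the kinetochore gene Cenpf (42.9 to 29.3 rppm, adjusted p = 0.00731).

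Markers of other cells were summed over the regions of each list. For 5 of 10 measured T cell markers the sum was 138.7 to 142.8 rppm in wild-type MZB and 115.3 to 136.8 in wild-type FoB (141.8 to 144.5 and 128.3 to 133.1 in the knockouts), and for 8 of 10 myeloid markers it was 290.4 to 300.4 in wild-type MZB, 328.9 to 354.9 in knockout MZB, 268.1 to 275.4 in wild-type FoB and 275.0 to 282.4 in knockout FoB. The myeloid sum was thus higher in knockout than in wild-type MZB, where Ccnd3 and E2f8 were called, and its part in those results was not tested. The germinal centre markers, whose cells divide, summed to 748.4 to 768.1 rppm in wild-type MZB, 736.5 to 757.7 in knockout MZB, 743.0 to 786.5 in wild-type FoB and 678.8 to 714.1 in knockout FoB. Plasma cell markers summed to between 1009 and 1109 rppm over the 12 libraries. B cell markers summed to 1453 to 1571 rppm in wild-type MZB, 1448 to 1658 in knockout MZB, 1883 to 1919 in wild-type FoB and 1723 to 1868 in knockout FoB. The germinal centre and B cell sums were thus both lower in every knockout FoB library than in any wild-type FoB library, and their part in the FoB knockout results was not tested.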

How the data were processed

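ATAC-seq reads were counted by the authors over one set of regions and deposited as RPM values (rppm), whose columns each sum to 1000000 over the regions. Per the submitters' processing notes, Bowtie 1.1.1, MACS2 and mm10 were used; filters are not stated there. Each value was a whole number of reads times a library constant for 100% of values (tolerance 0.01 reads), which gave back the read counts behind the deposited values. No pair of libraries of a group agreed within sampling noise (chi-square over degrees of freedom from 1.091 to 1.839).

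Regions were assigned to the overlapping or nearest of 21900 protein-coding genes of RefSeq GRCm38.p6, and coordinates are as deposited. limma 3.58.1 (R 4.3.3) was fitted to log2(rppm + 0.5) of all 12 libraries in 4 groups, with trend, for 5 comparisons. P-values were adjusted over all 89782 tested regions, or, for rppm summed per gene, over 16783 genes. edgeR 4.0.16 and DESeq2 1.42.0 on recovered reads were alternatives. The script was tested on simulated data.

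For each comparison the region with the smallest p was named for up to 12 members with a called region, and gene-start regions were described whether or not called. Up to 5 genes of each other list were eligible by smallest p. Members and lists were chosen with earlier results of these data known. Alternatives for gene-start counts were added after seeing the data. Intervals cover counting error only.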

Additional observations from a re-analysis of the deposited data

How the results depend on the processing

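Of 26 leading member regions, 24 kept their call and direction in every alternative run, the exceptions being Ccnd3 and Cdk1 between genotypes, and 20 of 39 called summed levels did. Both sets were picked by their p-values in these same data. In MZB the 1 knockout region became 0 with a pseudocount of 0.1 and with DESeq2, 2 with a pseudocount of 2 and with edgeR, and 3 after quantile normalization, where 1 gene-start region and 2 summed levels were called; over gene bodies only, 0 summed levels were. In a fit of the MZB libraries alone the count stayed at 1, but the Ccnd3 region was not the one called (adjusted p = 0.0538). In FoB the 1 knockout region became 0 with a pseudocount of 2, quantile normalization, the compared groups only and gene bodies only. DESeq2 also called 0 in FoB, but it gave the Cdk1 region no adjusted p. Between the cell types, gene bodies only gave 53 regions in wild-type (21 higher, 32 lower) and 52 in knockout (25 and 27), and quantile normalization gave 11 and 10 gene-start regions. The cause was not tested. The summed level of E2f8 reversed over gene bodies only, to -0.02 for the knockout in MZB, -0.22 in wild-type and -0.07 in knockout cells between the types. Leaving out 1 library gave 0 to 1 knockout regions in MZB and in FoB, 0 summed levels in either, 71 to 77 regions, 16 to 22 starts and 15 to 21 summed levels in wild-type cells, and 60 to 76, 17 to 22 and 14 to 15 in knockout cells. Regions of few reads, such as those near Cdk1 and Cdc25a, are limited by depth.

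Deviations from the group means correlated at -0.093 to 0.134 between same-numbered libraries and at -0.209 to 0.195 between libraries of different numbers. This check cannot show whether same-numbered libraries share an animal or a batch. With the replicate block, 88 and 80 regions were called between the cell types in wild-type and knockout cells, 1 and 1 between genotypes in MZB and FoB, and no call of a leading region changed; 2 called summed levels, of E2f1 and Cdc25a, no longer passed.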
